A study of Mus musculus with 20 samples.

Results

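Transcripts that mark Sertoli cells were followed through sorted mouse spermatocytes. They are Clu, Inha, Ctsl, Sox9, Wt1, Dhh and Cst12, the rows of the expression table that carry these 7 symbols, out of 23235 genes in all. The libraries came from pachytene, diplotene and meiosis II spermatocytes of adult males on a C57BL/6 background, Cxxc1-null or WT, with 2 RNA libraries in each of 6 groups and 12 libraries in total. Each library was made from 500 cells collected by flow cytometry. The gene deleted in the null animals, Cxxc1, encodes a CpG-binding subunit of the SET1 histone methyltransferase complexes that place trimethylation on lysine 4 of histone H3. The sources used here do not give how the deletion was made, which cells it covers, or whether paired libraries represent different animals. Every p-value is therefore relative to library-to-library spread, part or all of which may be technical. The 8 libraries of H3K4me3 chromatin immunoprecipitation in the series were not analysed here.

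Sertoli cells are the somatic nurse cells of the seminiferous tubule. Each one spans the epithelium, enfolds germ cells at every stage from spermatogonium to elongating spermatid, forms the blood-testis barrier by tight junctions and takes up the cytoplasm that germ cells shed. SOX9 and WT1 are transcription factors that set and hold Sertoli cell identity. Inha encodes the inhibin alpha subunit, through which Sertoli cells restrain follicle-stimulating hormone, and Dhh encodes Desert hedgehog, a ligand received by Leydig and peritubular cells through Patched receptors. Clu encodes clusterin, a secreted chaperone. Ctsl encodes the protease cathepsin L and Cst12 a member of the cystatin family, whose best known members inhibit such proteases. Clu and Ctsl are also made by many other cell types, so neither alone marks a Sertoli cell.

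Values are FPKM, in which fragments are divided by transcript length and by the library's total, so levels of different genes can be set side by side. The sources used here do not give the fragment number behind a value, and no counting interval can be attached. A gene's difference between groups is given as a log2 fold change ± standard error on the log2(FPKM + 1) scale, from one limma fit to the 12956 genes that reached 1 FPKM in 2 or more libraries, with Benjamini-Hochberg adjustment over all of them and a threshold of 0.05. That scale understates the change of genes with low values. All 7 markers passed the filter, but Sox9 and Wt1 did so through meiosis II libraries alone, whereas the other 5 also reached 1 FPKM at an earlier stage.

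The labelled stages were checked with 10 pachytene spermatocyte genes. Sycp3, of the synaptonemal complex, lay between 904 and 2419 FPKM in the pachytene libraries, between 377 and 477 in diplotene and between 140 and 187 in meiosis II. The list was mixed: from diplotene to meiosis II 5 of the 10 were called lower in each genotype, and 2, Pgk2 and Ccna1, higher. Of all genes 18.8% were called lower and 25.3% higher in Cxxc1-null cells, and 18.9% and 26.1% in WT cells. Pou5f2 was highest in diplotene, at 112 to 230 FPKM, against 28.3 to 56.4 in pachytene and 17.4 to 40.7 in meiosis II. Ldhc stayed between 6402 and 10502 FPKM over the 12 libraries. The pachytene libraries also held the spermatid transcript Prm1, at 577 to 1020 FPKM. The 2 libraries of a group correlated over all tested genes with Pearson r between 0.957 in WT pachytene and 0.976. Differences between genes dominate this measure, and single genes could spread widely, as Clu did in WT pachytene at 5.49 and 18.3 FPKM. Diplotene Cxxc1-null replicate 2 stood apart: its r with the mean of the WT meiosis II libraries was 0.891, against 0.834 to 0.849 for the other 3 diplotene libraries. The WT pachytene libraries differed most from each other, which does not single out either. One alternative leaves out WT pachytene replicate 2, chosen from earlier results of these data, together with diplotene Cxxc1-null replicate 2. It is given below as without both libraries. Replicates of WT pachytene were also left out in turn. Cxxc1 itself averaged 9.38 ± 0.27 FPKM in Cxxc1-null and 14.5 ± 3.97 in WT pachytene cells, 8.93 ± 0.91 in Cxxc1-null and 15.6 ± 2.73 in WT diplotene cells, and 2.56 ± 0.76 in Cxxc1-null and 12.7 ± 0.18 in WT meiosis II cells (SD, n = 2 each). The transcript remained detectable in the null libraries, and whether its reads cover a deleted part cannot be read from a value per gene.

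Promoter sequence is shown for a pair of markers with contrasting patterns, since CXXC1 binds unmethylated CpG dinucleotides: Dhh, the marker that differed with genotype, and Cst12, which had the largest step from diplotene to meiosis II on the log2(FPKM + 1) scale used here. Each run holds the 250 bases before and the 50 bases after the RefSeq start of the gene, 5′ to 3′ on the gene's strand, with every CpG in capitals. The build is GRCm38.p6, which differs from the mm9 build of the expression values. Dhh lies on the minus strand at chr15:98898491-98898790 and Cst12 on the plus strand at chr2:148789115-148789414.
Dhh: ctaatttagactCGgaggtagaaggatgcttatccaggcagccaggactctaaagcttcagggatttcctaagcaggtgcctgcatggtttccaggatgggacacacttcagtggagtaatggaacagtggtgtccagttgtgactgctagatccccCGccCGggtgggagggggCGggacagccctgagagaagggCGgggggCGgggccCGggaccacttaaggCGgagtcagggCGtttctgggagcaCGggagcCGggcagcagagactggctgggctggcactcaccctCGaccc
Cst12: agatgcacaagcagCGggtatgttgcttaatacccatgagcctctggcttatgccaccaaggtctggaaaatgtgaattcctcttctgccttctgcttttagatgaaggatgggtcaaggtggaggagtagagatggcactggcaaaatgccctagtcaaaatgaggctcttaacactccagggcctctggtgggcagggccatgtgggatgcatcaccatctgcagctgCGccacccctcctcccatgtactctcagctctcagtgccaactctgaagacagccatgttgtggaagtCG
The Dhh window held 12 CpGs and the Cst12 window 3. Of 32851 promoter windows of the same length, 60.4% held fewer CpGs than that of Dhh and 23.3% fewer than that of Cst12, around a median of 7 and quartiles of 3 and 20. Ctsl had 10 CpGs and Inha 5, ahead of 56.5% and 38.0% of windows. The table matched 4 of the 7 markers. Clu, Sox9 and Wt1 are named without a sequence. These counts are a description of the letters and not a measure of binding.

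The markers followed the stage of the sort. Their summed level was 82.1 and 91.8 FPKM in Cxxc1-null and 66.7 and 56.5 FPKM in WT pachytene libraries. It was 20.5 and 12.6 FPKM in Cxxc1-null and 14.8 and 10.3 FPKM in WT diplotene libraries. It was 380 and 425 FPKM in Cxxc1-null and 526 and 391 FPKM in WT meiosis II libraries. Every meiosis II library lay above every pachytene library, and every pachytene library above every diplotene library. In RNA from pooled cells, a change in the number of cells of a type and a change in RNA per cell cannot be told apart.

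**Figure D1:**
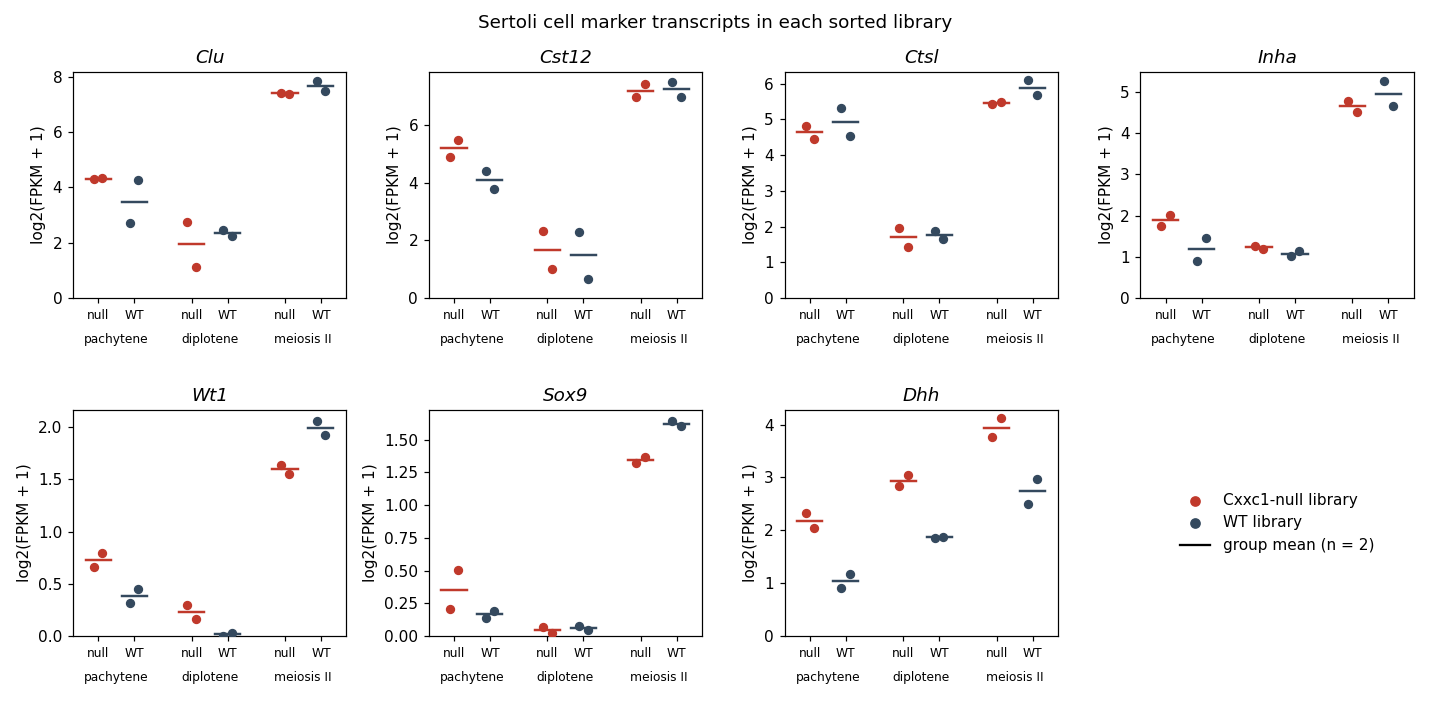
Level of each of the 7 Sertoli marker transcripts on the log2(FPKM + 1) scale in the 12 libraries, by stage on the horizontal axis with Cxxc1-null left of WT. Points are libraries and lines the mean of 2. Clu, Cst12, Ctsl, Inha, Wt1 and Sox9 were highest in meiosis II and low in diplotene, while Dhh was higher in diplotene than in pachytene and higher in Cxxc1-null libraries at every stage.

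The secreted and lysosomal products made up most of that sum. Clu was 18.5 and 19.0 FPKM in Cxxc1-null and 5.49 and 18.3 FPKM in WT pachytene, 5.71 and 1.18 FPKM in Cxxc1-null and 4.48 and 3.67 FPKM in WT diplotene, and 169 and 166 FPKM in Cxxc1-null and 228 and 178 FPKM in WT meiosis II. Meiosis II libraries of both genotypes were far above all others, and at that stage both null libraries lay below both WT libraries. Meiosis II exceeded diplotene by 5.46 ± 0.54 in Cxxc1-null and 5.32 ± 0.54 in WT cells on the log2 scale, with limma adjusted p of 7.14e-05 and 4.75e-05. From pachytene to diplotene Clu fell in Cxxc1-null cells, by 2.37 ± 0.54 (limma adjusted p = 0.0124), and its change of -1.15 ± 0.54 in WT cells was not called (adjusted p = 0.141). The genotypes' changes differed by -1.22 ± 0.76 (limma adjusted p = 1). The Cxxc1-null call was lost without pachytene Cxxc1-null replicate 2 (adjusted p = 0.0829) or diplotene Cxxc1-null replicate 2 (0.0651).

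Cst12 followed the same course. It was 29.1 and 44.6 FPKM in Cxxc1-null and 20.2 and 12.7 FPKM in WT pachytene, 4.04 and 1.03 FPKM in Cxxc1-null and 3.95 and 0.579 FPKM in WT diplotene, and 125 and 173 FPKM in Cxxc1-null and 183 and 127 FPKM in WT meiosis II. The genotypes overlapped in diplotene and meiosis II, and both null libraries exceeded both WT libraries in pachytene. From diplotene to meiosis II its level rose by 5.54 ± 0.56 in Cxxc1-null and 5.78 ± 0.56 in WT cells on the log2 scale (limma adjusted p = 7.99e-05 and 3.81e-05). It had first fallen from pachytene to diplotene, by 3.54 ± 0.56 in Cxxc1-null and 2.61 ± 0.56 in WT cells (limma adjusted p = 0.00424 and 0.00892).

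Ctsl stood out for its pachytene level. It was 27.4 and 20.9 FPKM in Cxxc1-null and 38.9 and 22.0 FPKM in WT pachytene, 2.91 and 1.71 FPKM in Cxxc1-null and 2.70 and 2.17 FPKM in WT diplotene, and 42.0 and 43.6 FPKM in Cxxc1-null and 67.5 and 50.4 FPKM in WT meiosis II. Its mean pachytene level came to 56.4% of its meiosis II level in Cxxc1-null and 51.7% in WT cells, whereas for the other 6 markers this share ran from 11.2% to 32.6% in Cxxc1-null and from 4.21% to 18.6% in WT cells. Ctsl therefore took 33.3% and 22.8% of the summed level in Cxxc1-null and 58.4% and 38.9% in WT pachytene libraries, against 10.2% to 12.9% in meiosis II. From pachytene to diplotene it fell by 2.94 ± 0.31 in Cxxc1-null and 3.15 ± 0.31 in WT cells on the log2 scale (limma adjusted p = 0.00139 and 0.000635), and meiosis II exceeded diplotene by 3.75 ± 0.31 and 4.12 ± 0.31 in those genotypes (adjusted p = 3.74e-05 and 1.91e-05).

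Inha, the hormone subunit, was low outside meiosis II. It was 2.38 and 3.06 FPKM in Cxxc1-null and 0.874 and 1.73 FPKM in WT pachytene, 1.41 and 1.28 FPKM in Cxxc1-null and 1.02 and 1.21 FPKM in WT diplotene, and 26.5 and 21.9 FPKM in Cxxc1-null and 37.6 and 24.1 FPKM in WT meiosis II. Levels in WT pachytene overlapped those of both diplotene groups. The meiosis II rise was 3.42 ± 0.27 in Cxxc1-null and 3.88 ± 0.27 in WT cells on the log2 scale (limma adjusted p = 3.67e-05 and 1.85e-05), and the earlier stage step passed the threshold in neither genotype.

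The identity factors were the scarcest of the markers. Wt1 was 0.587 and 0.735 FPKM in Cxxc1-null and 0.242 and 0.362 FPKM in WT pachytene, 0.228 and 0.122 FPKM in Cxxc1-null and 0 and 0.0229 FPKM in WT diplotene, and 2.12 and 1.94 FPKM in Cxxc1-null and 3.18 and 2.80 FPKM in WT meiosis II. The library ranges of the 6 groups did not overlap for any neighbours in their order, which outside meiosis II rests on values below 1 FPKM. How many genes in all show such an order was not determined. Genotypes separated in the direction of Wt1 for 24.1% of all genes in pachytene, 30.4% in diplotene and 26.4% in meiosis II. Sox9 was 0.152 and 0.419 FPKM in Cxxc1-null and 0.101 and 0.143 FPKM in WT pachytene, 0.0501 and 0.0178 FPKM in Cxxc1-null and 0.0542 and 0.0335 FPKM in WT diplotene, and 1.5 and 1.58 FPKM in Cxxc1-null and 2.13 and 2.03 FPKM in WT meiosis II. It reached 1 FPKM in the 4 meiosis II libraries and in no other.

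Wt1 rose from diplotene to meiosis II by 1.37 ± 0.15 in Cxxc1-null and 1.98 ± 0.15 in WT cells on the log2 scale (limma adjusted p = 0.000107 and 1.91e-05). For Sox9 the rise was 1.30 ± 0.14 in Cxxc1-null and 1.56 ± 0.14 in WT cells (limma adjusted p = 0.000116 and 3.16e-05). Both factors passed the expression filter through that stage alone, so a difference from diplotene was built into their being tested.

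Dhh, the hedgehog ligand, did not follow the other markers. It was 4.01 and 3.12 FPKM in Cxxc1-null and 0.878 and 1.26 FPKM in WT pachytene, 6.12 and 7.25 FPKM in Cxxc1-null and 2.63 and 2.66 FPKM in WT diplotene, and 12.6 and 16.4 FPKM in Cxxc1-null and 4.64 and 6.89 FPKM in WT meiosis II. It was higher at each later stage in both genotypes, and every null library exceeded both WT libraries of its stage. In diplotene, where the other 6 markers were at 0.383% to 8.62% of their meiosis II level, Dhh was at 46.1% of it in Cxxc1-null and 45.9% in WT cells. Dhh accordingly took 29.9% and 57.6% of the summed level in Cxxc1-null and 17.7% and 25.7% in WT diplotene libraries, against 0.883% to 4.88% in the other 8 libraries.

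**Figure D2:**
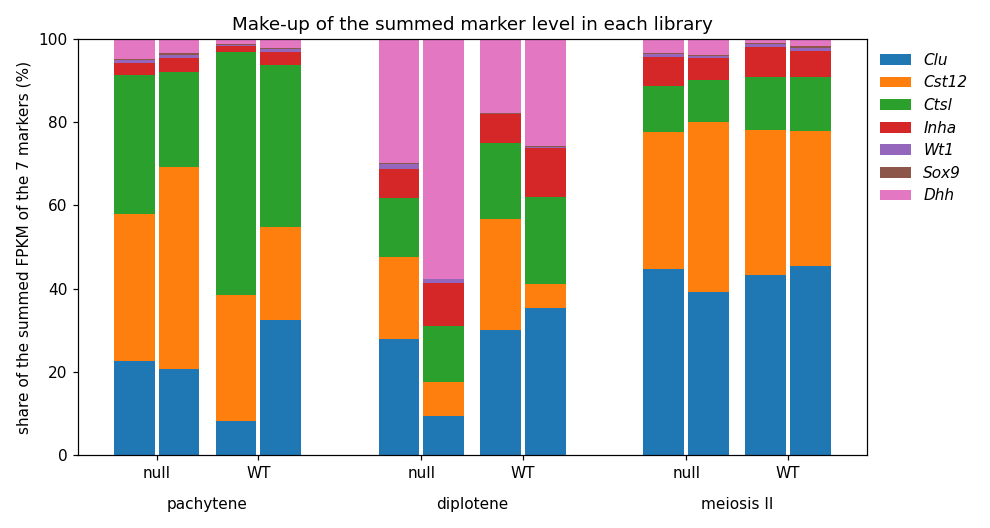
Share of the summed FPKM of the 7 markers taken by each, in percent, with 1 bar per library, replicate 1 left of replicate 2 and Cxxc1-null left of WT within each stage. Clu and Cst12 made up most of the sum in meiosis II, Ctsl took up to 58.4% in pachytene, and Dhh took up to 57.6% in diplotene.

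Averaged over replicates, the order of Dhh levels ran from meiosis II Cxxc1-null cells (14.5 ± 2.63 FPKM) through diplotene Cxxc1-null cells (6.68 ± 0.80 FPKM), meiosis II WT cells (5.76 ± 1.59 FPKM), pachytene Cxxc1-null cells (3.57 ± 0.63 FPKM) and diplotene WT cells (2.64 ± 0.017 FPKM) to pachytene WT cells (1.07 ± 0.27 FPKM; SD, n = 2 each). Diplotene Cxxc1-null and meiosis II WT cells overlapped and the other neighbours did not. For the other 6 markers the order began with the WT and then the Cxxc1-null meiosis II cells, whose ranges overlapped for Inha and Cst12 and were separate for Clu, Ctsl, Sox9 and Wt1.

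All 7 markers were called higher in meiosis II than in diplotene, in Cxxc1-null and in WT cells, and also when no expression filter was applied. Among all tested genes 25.3% were called higher in Cxxc1-null and 26.1% in WT cells, and the median log2 change was 3.42 over the 7 markers against -0.01 over all genes in Cxxc1-null cells, and 3.88 against 0.02 in WT cells. Dhh had the smallest rise, 1.01 ± 0.25 in Cxxc1-null and 0.87 ± 0.25 in WT cells (limma adjusted p = 0.00772 and 0.0152). The WT rise of Dhh was lost when the libraries were brought to one distribution (0.48, adjusted p = 0.151) or one median (0.57, adjusted p = 0.0797), scalings that moved the median of all genes in that comparison by -0.25 and -0.30. It was also lost without either WT diplotene replicate (adjusted p = 0.0636 and 0.0604) or without WT meiosis II replicate 2 (0.125), and the null rise without diplotene Cxxc1-null replicate 1 (0.0544) or meiosis II Cxxc1-null replicate 2 (0.066).

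From pachytene to diplotene Dhh rose and several other markers fell. The spermatid markers summed to 2127 and 1411 FPKM in Cxxc1-null and 2216 and 1962 FPKM in WT pachytene libraries, above their diplotene levels, and Tnp1, Tnp2, Prm1 and Prm2 were called lower in diplotene in Cxxc1-null cells and Tnp1 in WT cells. Their part in the fall of the markers was not tested. In Cxxc1-null cells Clu, Ctsl, Wt1 and Cst12 were called lower, where 17.4% of all genes were, and Dhh higher, where 11.9% were. In WT cells Ctsl and Cst12 were called lower, with 17.4% of all genes, and Dhh higher, with 9.08%. Dhh rose by 0.75 ± 0.25 in Cxxc1-null and 0.82 ± 0.25 in WT cells (limma adjusted p = 0.0441 and 0.0339). The Wt1 call was lost with quantile scaling (-0.31, limma adjusted p = 0.137), at a common median (-0.38, adjusted p = 0.0923), in a separate fit (0.0521) and without any 1 of the 4 Cxxc1-null libraries of these stages (0.0621 to 0.166). The Cst12 call of WT cells was lost without WT pachytene replicate 1 or WT diplotene replicate 2 (both 0.0645). These Dhh calls were lost with no expression filter (adjusted p = 0.0689 in Cxxc1-null and 0.0566 in WT cells), and over all alternatives the adjusted p reached 0.231 in Cxxc1-null and 0.165 in WT cells. The Dhh call of WT cells was lost without WT pachytene replicate 1 or either WT diplotene replicate, and that of null cells without any 1 pachytene or diplotene Cxxc1-null library, either meiosis II Cxxc1-null library or either WT diplotene library. The number of called markers moved too: the null count of 5 became 2 without pachytene Cxxc1-null replicate 2 or diplotene Cxxc1-null replicate 2 and 3 without replicate 1 of either group, and the WT count of 3 became 1 without WT diplotene replicate 2. Without both libraries, the alternative described above, the change in Cxxc1-null cells was -0.43 for Wt1 and 0.65 for Dhh.

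Spermatid transcripts and the summed peritubular level rose at the meiosis II step, and Leydig cell transcripts varied between libraries. All 10 spermatid markers rose from diplotene in both genotypes, and their summed level was 2168 and 4507 FPKM in Cxxc1-null and 7438 and 10430 FPKM in WT meiosis II libraries, against 172 and 835 FPKM in Cxxc1-null and 368 and 802 FPKM in WT diplotene libraries. Peritubular markers summed to 41.9 and 74.8 FPKM in Cxxc1-null and 78.9 and 65.3 FPKM in WT meiosis II libraries. In diplotene they summed to 4.87 to 15.0 FPKM, and most of the meiosis II sum was the smooth muscle actin Actg2. Of 4 tested, 2 rose in Cxxc1-null cells, Cnn1 and Actg2, and 3 in WT cells, Acta2, Cnn1 and Actg2. Tagln was called in neither genotype. Leydig cell markers summed to 102 and 188 FPKM in Cxxc1-null and 270 and 47.5 FPKM in WT meiosis II libraries, mostly from the hormone gene Insl3, against 12.3 to 68.5 FPKM in diplotene. Of 5 tested, 3 rose and 1 fell in Cxxc1-null cells, and 1 rose and 1 fell in WT cells. The Leydig genes Cyp11a1 and Hsd3b6 and the peritubular gene Cnn1 reached 1 FPKM in meiosis II libraries alone. A difference from diplotene was thus built into their being tested. Of all genes 25.3% were called higher and 18.8% lower in Cxxc1-null cells, and 26.1% higher and 18.9% lower in WT cells. In WT cells Insl3 itself was not called (limma adjusted p = 0.286). The part of these cell types in the level of the Sertoli markers was not tested.

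The listed vessel and macrophage markers were low, and the listed haemoglobin genes were near 0. No other haemoglobin gene was examined. The 5 endothelial markers summed to at most 2.41 FPKM in any library and none reached the filter. The haemoglobin genes Hba-a1 and Hbb-b1 were listed at 0 in most libraries and nowhere above 0.00306 FPKM. Macrophage and blood markers together summed to 0.957 to 8.92 FPKM across the 12 libraries, with Lyz2 at up to 4.79 FPKM. Of 3 tested, Emr1, which encodes a macrophage surface receptor, rose from diplotene to meiosis II in both genotypes. Of all genes 25.3% were called higher in Cxxc1-null and 26.1% in WT cells. Emr1 was 2.79 and 1.84 FPKM in Cxxc1-null and 0.967 and 0.527 FPKM in WT meiosis II libraries, a difference of 0.92 ± 0.18 (limma adjusted p = 0.0134). It reached 1 FPKM in those Cxxc1-null libraries alone and passed the filter through them. Being higher there was thus built into its being tested.

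**Figure D3:**
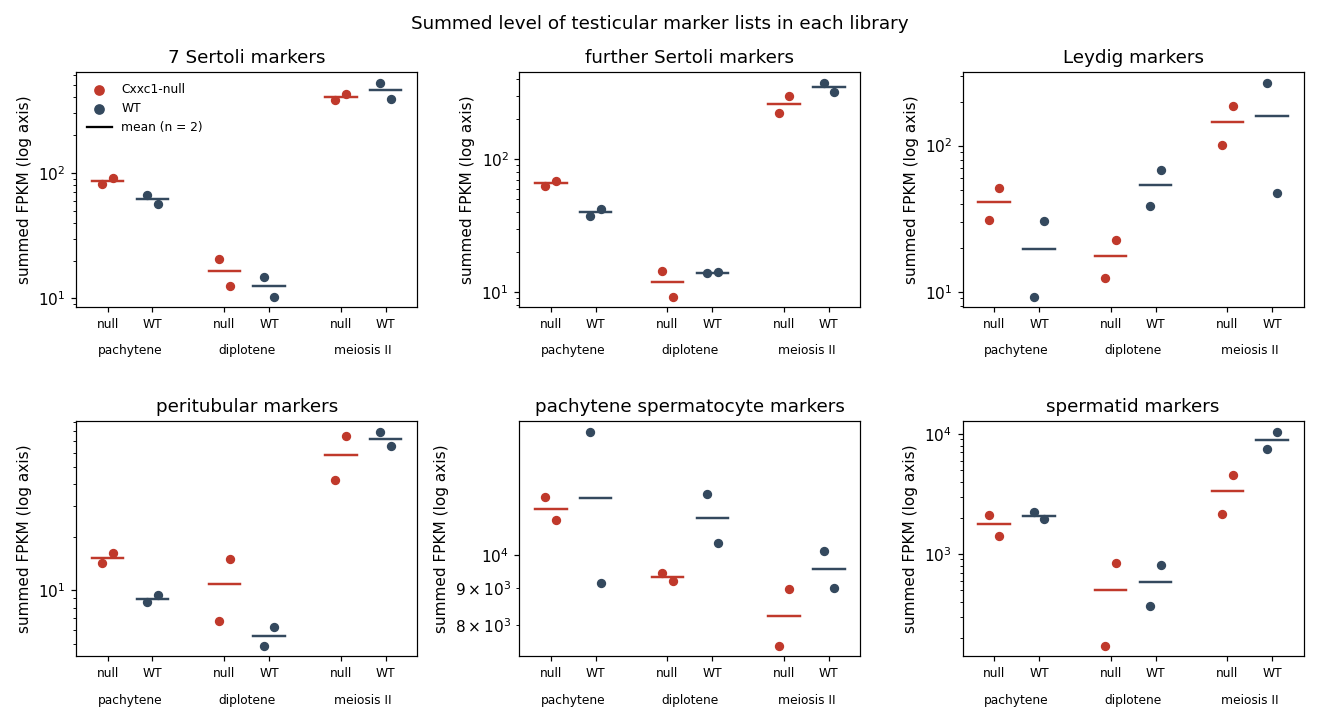
Summed FPKM, on log axes, of 6 lists of testicular marker genes in the 12 libraries, by stage with Cxxc1-null left of WT. Points are libraries and lines the mean of 2. The 7 Sertoli markers and the further Sertoli markers share a diplotene low and a meiosis II high, the spermatid list is also highest in meiosis II, and the pachytene spermatocyte list stays between 7494 and 14799 FPKM.

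A second list of 27 Sertoli genes, of which 26 were in the table and 17 passed the filter, showed the same stage course. Its summed level was 63.2 and 68.5 FPKM in Cxxc1-null and 37.7 and 42.3 FPKM in WT pachytene libraries. It was 14.4 and 9.24 FPKM in Cxxc1-null and 13.9 and 14.1 FPKM in WT diplotene libraries. In meiosis II it was 222 and 300 FPKM in Cxxc1-null and 377 and 321 FPKM in WT libraries. All 17 tested genes were called higher in meiosis II than in diplotene in both genotypes. Of all genes 25.3% were called higher in Cxxc1-null and 26.1% in WT cells. The median log2 change of the 17 was 1.79 in Cxxc1-null and 2.28 in WT cells, against -0.01 and 0.02 over all genes. Of the 17, 10 reached the filter outside meiosis II, and the rest were tested only because they were high there.

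Cst9, a cystatin like Cst12, was the most abundant of that list. It was 95.4 and 160 FPKM in Cxxc1-null and 179 and 149 FPKM in WT meiosis II libraries, against 5.60 and 1.02 FPKM in Cxxc1-null and 5.76 and 1.78 FPKM in WT diplotene libraries. Cldn11, which encodes the tight junction protein of the blood-testis barrier, was 19.7 and 13.5 FPKM in Cxxc1-null and 26.6 and 17.0 FPKM in WT meiosis II libraries. Some defining genes stayed low: the hormone gene Amh did not exceed 0.144 FPKM, Gdnf 0.279, the transcription factor Gata4 0.981 and the follicle-stimulating hormone receptor Fshr 1.23 in any library. Amh is a marker of the immature Sertoli cell and is normally low in the adult.

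Of the 7 markers, 1 differed between genotypes. Dhh was higher in Cxxc1-null cells by 1.14 ± 0.14 on the log2 scale averaged over stages (limma adjusted p = 0.0011, higher in 6 of 6 null libraries), where 16.7% of all genes were called and 11.5% were called higher. At single stages the difference was 1.14 ± 0.25 in pachytene (limma adjusted p = 0.104), 1.07 ± 0.25 in diplotene (0.0783) and 1.21 ± 0.25 in meiosis II (0.0152). As a ratio of mean FPKM this was 3.33-fold, 2.53-fold and 2.51-fold. The limma tests of a change in this difference between stages gave adjusted p from 0.961 to 1, and 8.24% of all genes had both null libraries above both WT libraries at all 3 stages. Other markers were called in the same averaged comparison, where 5.13% of all genes were called lower. The spermatid genes Acrv1 (1.09), Spaca1 (1.16) and Izumo1 (0.83) were higher and Prm2 lower in Cxxc1-null cells, and Emr1 was higher (0.59, limma adjusted p = 0.00599). The spermatogonial gene Nanos3 was higher and Id4 lower, and the pachytene spermatocyte genes Piwil1, Hist1h1t and Pou5f2 were lower. Of the second Sertoli list Ptgds (-1.33, limma adjusted p = 0.0314) and Espn (-0.99, adjusted p = 0.0127) were lower and none was called higher. Emr1 passed the filter through Cxxc1-null meiosis II libraries alone. The part of these genes in the Dhh difference was not tested.

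The averaged difference of Dhh passed the threshold under every alternative run, with log2 values between 1.04 and 1.43 and adjusted p between 0.0011 and 0.0318. The meiosis II call was lost without WT meiosis II replicate 1 (0.96, limma adjusted p = 0.116), without meiosis II Cxxc1-null replicate 2 (1.03, adjusted p = 0.107), and when that stage was fitted alone (adjusted p = 0.0847). In pachytene it passed with a pseudocount of 0.1 (1.66, adjusted p = 0.045).

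**Figure D4:**
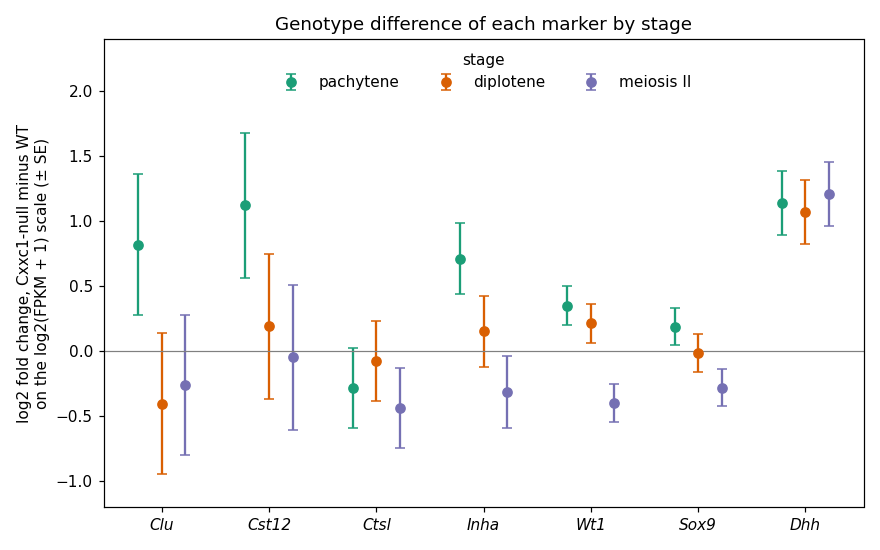
Genotype difference of each marker, Cxxc1-null minus WT, as log2 fold change on the log2(FPKM + 1) scale with its standard error from limma, by stage. Dhh lies between 1.07 and 1.21 at all 3 stages; the other 6 markers lie between -0.44 and 1.12.

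With all 12 libraries in the fit, the other 6 markers passed the threshold in no genotype comparison. In pachytene 0 of the 7 were called by limma, with 0.355% of all genes called, and 3 of the 7 had an unadjusted p under 0.05, as did 10.7% of all genes. In diplotene 0 of the 7 were called, with 0.787% of all genes, and 1 had an unadjusted p under 0.05, as did 13.5% of all genes. In meiosis II Dhh alone was called, with 10.5% of all genes called and 6.14% called higher, and 2 had an unadjusted p under 0.05, as did 26.1% of all genes.

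The direction of the other 6 differed by stage without a call. In pachytene Clu, Inha, Sox9, Wt1, Dhh and Cst12 were higher in both null libraries than in both WT libraries, where 24.1% of all genes were, while Ctsl overlapped. Their log2 differences were 0.82 ± 0.54 for Clu, 0.71 ± 0.27 for Inha, 0.19 ± 0.14 for Sox9, 0.35 ± 0.15 for Wt1 and 1.12 ± 0.56 for Cst12 (limma adjusted p between 0.374 and 0.705). In meiosis II Clu, Ctsl, Sox9 and Wt1 were lower in both null libraries than in both WT libraries, where 26.4% of all genes were. Their differences were -0.26 ± 0.54, -0.44 ± 0.31, -0.28 ± 0.14 and -0.40 ± 0.15 (limma adjusted p = 0.813, 0.405, 0.253 and 0.12). In diplotene only Inha, Wt1 and Dhh were higher in both null libraries, where 30.4% of all genes were.

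The test of whether the genotype difference varies with stage called 0 of the 7 markers, with 0.0540% of all genes, and 1 marker, Wt1, had an unadjusted p under 0.05 (limma F test, adjusted p = 0.344), as did 8.77% of all genes. The averaged difference of Clu was 0.58 without both WT pachytene replicate 2 and diplotene Cxxc1-null replicate 2, against 0.05 ± 0.31 (limma adjusted p = 0.929) with them. That alternative keeps WT pachytene replicate 1, at 5.49 FPKM, as the WT pachytene value. In pachytene the Clu difference was 0.032 without WT replicate 1 and 1.61 without WT replicate 2, and neither was called.

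Among the further Sertoli genes Ptgds, a prostaglandin D synthase, and Espn, an actin-bundling protein of the Sertoli-germ cell junction, were called lower in Cxxc1-null meiosis II cells, 2 of the 17 tested where 4.35% of all genes were. Ptgds was 3.82 and 8.77 FPKM in Cxxc1-null and 31.3 and 36.7 FPKM in WT libraries, a difference of -2.35 ± 0.61 (limma adjusted p = 0.0386). Espn was 1.81 and 1.65 FPKM in Cxxc1-null and 7.55 and 8.96 FPKM in WT libraries, a difference of -1.76 ± 0.36 (limma adjusted p = 0.0158). None of the 17 was called higher, and the median difference of the 17 was -0.23, against 0.02 over all genes and -0.28 over the 7 markers. In the same libraries the summed spermatid level was also lower in Cxxc1-null than in WT cells, as given above. Of the 10 spermatid genes 0 were called there, where 10.5% of all genes were. Their median difference was -0.25, and 2 of them, Spaca1 (0.32) and Tssk1 (0.35), lay higher in Cxxc1-null cells. The part of the spermatid genes was not tested.

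The partners of these genes were mostly scarce. Of 16 further hedgehog pathway genes 5 passed the filter. The receptor Ptch1 did not exceed 0.0975 FPKM and the pathway target Gli1 0.124 FPKM in any library. At no stage did a tested gene of the list differ between genotypes by limma at the threshold.

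From diplotene to meiosis II Sufu, an inhibitor of the pathway's transcription factors, and Scube2, which helps release the ligand, rose in both genotypes. Scube2 reached 1 FPKM in meiosis II libraries alone, so its rise was built into its being tested. Of the 17 inhibin and activin genes 6 were tested. The beta subunits that pair with inhibin alpha were near 0, with Inhba at most 0.0541 and Inhbb at most 1.01 FPKM. Smad4, the shared mediator of activin signals, was called higher in Cxxc1-null meiosis II cells, with 5.63 and 10.3 FPKM in Cxxc1-null and 3.11 and 2.64 FPKM in WT libraries (1.16 ± 0.32, limma adjusted p = 0.0471). It was the only 1 of the 6 called there, where 6.14% of all genes were called higher.

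Among 11 other cystatin genes 6 were tested, and 4 of them, Cst8, Cst9, Cst13 and Cstl1, rose from diplotene to meiosis II in both genotypes. Of all genes 25.3% were called higher in Cxxc1-null and 26.1% in WT cells. Cstl1 was called lower in Cxxc1-null meiosis II cells, at 7.71 and 14.0 FPKM in Cxxc1-null and 28.4 and 37.0 FPKM in WT libraries (-1.55 ± 0.35, limma adjusted p = 0.021). It was the only 1 of the 6 called there, where 4.35% of all genes were called lower. Of 13 further cathepsins 7 were tested, and 2, Ctsb and Ctsd, rose from diplotene to meiosis II in both genotypes, a share near that of all genes. Ctsb passed the filter through meiosis II libraries alone, so its rise was built into its being tested.

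The genes most like each marker were ranked by Pearson r of log2(FPKM + 1) over the 12 libraries, which share their stages; the values are descriptive. For Dhh they were Gucy2g (0.983), Dlg2 (0.979) and Fitm1 (0.978). Fitm1 was 46.1 and 62.2 FPKM in Cxxc1-null and 14.5 and 18.9 FPKM in WT meiosis II libraries, with the null libraries above WT at all 3 stages. These genes were picked for their likeness to Dhh, so a shared pattern follows from the choice. Gucy2g, which encodes a guanylate cyclase, was at most 2.69 FPKM.

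**Figure D5:**
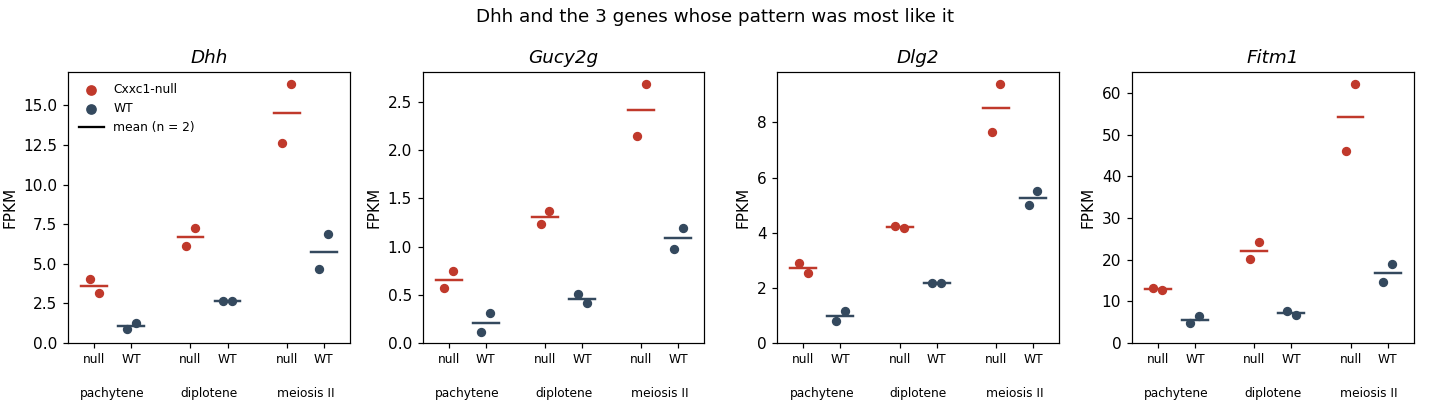
FPKM of Dhh and the 3 genes whose pattern was most like it over the 12 libraries, by stage with Cxxc1-null left of WT. Points are libraries and lines the mean of 2. In all 4 panels both null libraries lie above both WT libraries at each stage, and the highest level is in null meiosis II cells. The 3 genes were picked for this likeness.

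For the other 6 markers the most alike genes differed from those of Dhh. They were Wfdc10 (0.987), Cldn11 (0.987) and Ldhb (0.982) for Clu, and Cst9 (0.992), Cd302 (0.981) and Defb19 (0.976) for Cst12. For Inha they were Alg13, Ptgr1 and Ebp (0.990 to 0.992), and for Ctsl Hmgb3 (0.970), Tubb5 (0.967) and Otud4 (0.959). For Sox9 they were Lpar3, Gpm6b and Olfr183 (0.991 to 0.992), and for Wt1 Ttyh2 (0.990), Gstm7 (0.985) and Klf6 (0.983). Uncharacterised symbols were passed over, 3 for Ctsl and 1 for Cst12.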

How the data were processed

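RNA was measured in 12 libraries of 500 sorted cells made with Smart-seq2, a full-length method primed with oligo-dT, per the labels' protocols. The authors deposited one table of FPKM values for 23235 genes. TopHat2 2.1.1, Cufflinks 2.2.1 and the mm9 build are named in the submitters' processing notes, without their roles. The sources used here do not give depth. Ratios of low values between libraries shared one mode in only 15.3% to 22.7% of genes, so no reads were recovered and no count test was run. Strand is not described, so overlapping genes are uncertain.

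Samples were grouped by title. A pseudocount of 1 was added before taking log2, and the 12956 genes that reached 1 FPKM in 2 or more libraries entered one limma 3.58.1 fit in R 4.3.3 with a mean per group, a mean-variance trend and 6 residual degrees of freedom. The procedure was tested on simulated data. Alternatives changed the pseudocount, filter, scaling, fit, replicate block and libraries. All 7 markers are named, with the 3 genes most like each, the 10 most like their mean, and, from other lists, some of the genes called between genotypes or most abundant; genes named from those lists were picked with their values known. The markers and lists were chosen with earlier results of these data known. One gene of the hedgehog list is not reported here.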

Additional observations from a re-analysis of the deposited data

Results flagged for a closer look

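The genotype difference of 3 markers took opposite directions at 2 stages: both Cxxc1-null libraries lay above both WT libraries in pachytene and below both in meiosis II. The meiosis II difference minus the pachytene difference was -1.0792 ± 0.76 for Clu, -0.4669 ± 0.20 for Sox9 and -0.7479 ± 0.21 for Wt1 on the log2 scale. The limma tests of that change gave adjusted p of 0.593, 0.378 and 0.185, so none passed the threshold. WT pachytene replicate 1 had the lowest pachytene Clu level, 5.49 FPKM, against 18.3 FPKM in replicate 2.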

How the results depend on the processing

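Called markers changed in number as follows. Between genotypes in pachytene the count was 1 with pseudocount 0.1, against 0. In meiosis II it was 0 when the stage was fitted alone, against 1, and 0 to 1 when single libraries were left out. Averaged over stages the count of 1 changed without both libraries, where the difference of Clu was 0.58. Those libraries were WT pachytene replicate 2, chosen from earlier results, and diplotene Cxxc1-null replicate 2. From pachytene to diplotene the count was 3 in Cxxc1-null cells with a separate fit, against 5. It also changed without both libraries and with single libraries left out. In WT cells it was 0 with a separate fit, against 3, and 1 to 3 with single libraries left out. The separate fit has fewer samples; the other causes were not tested. Settings not named here left each count within 1.5 times its value.

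Some differences that were not called with all 12 libraries changed sign (log2). One of them, Clu averaged over stages, kept its sign without both libraries and was then 0.58. With quantile scaling these were Sox9 in pachytene (-0.0032), Inha (-0.0738) and Cst12 (-0.0191) in diplotene, and Clu (-0.0436) and Wt1 (-0.0455) averaged over stages. Without both libraries they were Clu (0.41), Ctsl (0.19) and Sox9 (0.0087) in diplotene. Cst12 in meiosis II was 0.0076 at a common median, and Sox9 averaged over stages 0.0623 with pseudocount 0.1. From pachytene to diplotene in WT cells Inha was 0.19 with quantile scaling, 0.11 at a common median and 0.17 without both libraries, and Sox9 0.10 at a common median. With single libraries left out the ranges were -0.68 to 0.12 for Ctsl in pachytene, and in diplotene -1.21 to 0.41 for Clu, -0.34 to 0.19 for Ctsl, -0.0363 to 0.0087 for Sox9 and -0.63 to 1.02 for Cst12. They were -0.31 to 0.21 for Cst12 in meiosis II, -0.22 to 0.32 for Clu and -0.0849 to 0.0153 for Sox9 averaged over stages, and -0.37 to 0.17 for Inha from pachytene to diplotene in WT cells.

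Over all genes, the 46 called between genotypes in pachytene became 86 with pseudocount 0.1, 28 at a 5 FPKM filter, 9 unfiltered, 6 fitted alone and 12 without both libraries. The 102 in diplotene became 212, 60, 50, 4 and 13 under these settings and 45 with quantile scaling. The 1358 in meiosis II became 732 at 5 FPKM and 219 fitted alone. The 2158 averaged over stages became 434 with stages joined by replicate number and 1291 without both libraries, the 3431 from pachytene to diplotene in WT cells became 3 fitted alone, and the 7 of the interaction became 28 unfiltered and 14 without both libraries. With single libraries left out the genotype counts ran from 1 to 123, 4 to 480, 401 to 1622 and 1287 to 2585. From pachytene to diplotene they ran from 444 to 4395 in Cxxc1-null cells, against 3794, and from 1335 to 4115 in WT cells, against 3431, so the shares of all genes given beside the markers move with them.

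Replicate numbers are shared across groups, and the labels do not say what they mark. Deviations of same-numbered libraries correlated between genotypes at -0.07 in pachytene, 0.32 in diplotene and 0.11 in meiosis II, and between stages of one genotype at 0.116 to 0.420. Of the 15 pairs of groups 12 were positive, and with 2 libraries per group this does not settle whether the numbers pair samples. A replicate block left every count of called markers as it was, with 1 called averaged over stages. A block within genotype, chosen after seeing the data, was fitted to the stage comparisons alone and left their counts as they were. It gives no test of a genotype difference. FPKM without fragment numbers limits what can be said of Sox9 and Wt1 below 1 FPKM.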

Other observations

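The 10 genes whose log2(FPKM + 1) was most like the mean of the 7 markers over the 12 libraries were Gstm6, Gstm2, Cpe, Slc25a5, Ldhb, Gatm, Wfdc10, Sparc, Tuba1a and Gstm7, with Pearson r between 0.982 and 0.992. Gstm2, Gstm6 and Gstm7 encode glutathione S-transferases of the mu class, which conjugate glutathione to reactive compounds. Sparc encodes a secreted matrix protein and Cpe a carboxypeptidase that trims peptide hormones. These 12 libraries share their stages and are not independent of the markers' own stage course.

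Diplotene Cxxc1-null replicate 2, the diplotene library most like meiosis II over all genes, had the lowest summed level of the 6 markers other than Dhh, 5.34 FPKM, against 7.68 to 14.3 FPKM in the other diplotene libraries.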
